A study of Homo sapiens with 4 samples.

Results

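IGSF8, its relatives PTGFRN and IGSF3, and the tetraspanins CD9, CD81, CD151 and CD82 were followed in RNA recovered on streptavidin beads. The cells were DU-145, a human prostate cancer line. These 7 genes were found by matching the RefSeq accessions of the deposited tables to gene symbols, which gave 13 of 53209 transcript rows and 7 of 25688 genes. IGSF8 was chosen by its FPKM values (fragments per kilobase of transcript and mapped library size) in biotin and control libraries, as the gene with the largest rise among those above 0 in all 4 libraries, so its difference is described without a test. The other 6 were taken for their relation to IGSF8, with earlier results of these data known. For 2 biotin libraries the cells were given 60 nM of mixed miR-26a duplexes, biotinylated at the 3′ end, with thiouridine as nucleotide 7 in one duplex and nucleotide 17 in the other. For 2 control libraries they were given 60 nM of miR-26a duplex with no tag. All cells were irradiated at 365 nm before RNA was extracted, and both groups thus carried added miR-26a. The tag and the thiouridine always came together, so their parts in a difference cannot be told apart. Input RNA was not analysed here, so the abundance of a transcript in the cells and its recovery on the beads cannot be told apart, nor can fewer cells with a transcript and less of it per cell.

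IGSF8, PTGFRN and IGSF3 are EWI proteins, cell-surface members of the immunoglobulin superfamily named after a short Glu-Trp-Ile motif. IGSF8 and PTGFRN bind directly to the tetraspanins CD9 and CD81, small proteins that cross the membrane several times and gather integrins and other receptors into microdomains. Tetraspanin complexes act in cell adhesion, migration and fusion, and CD82 is known as a suppressor of prostate cancer metastasis. A microRNA is guided to mRNAs mainly by its seed, nucleotides 2 to 8 from its 5′ end, usually through sites in the 3′ untranslated region (UTR).

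The mature miR-26a and the stretches of the 7 transcripts that resemble its sites are shown because the pull-out was built on this microRNA. miR-26a-5p is encoded on chromosome 3, 37969413 to 37969434, and on chromosome 12, 57824658 to 57824679 (RefSeq, GRCh38.p14), with the same 22 nucleotides, and the seed is in capitals.
hsa-miR-26a-5p: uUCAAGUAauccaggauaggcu
Both nucleotide 7 and nucleotide 17 of this sequence were U. The transcripts of the 7 genes in GENCODE 29 were searched in the sense orientation for ACTTGA, which pairs with nucleotides 2 to 7, and for its extensions by a T before it or an A after it. No such match was found in IGSF8, PTGFRN, CD9, CD81 or CD151, in either UTR or in the coding sequence. Of 9344 transcripts of tested genes, 48.7% likewise held none. For 1602 of the 9344, no linked transcript had a length within 10% of the deposited one. The shares given here can be off where a stretch was missing. IGSF3 held ACTTGAA in its 3′ UTR, 120 bases past the last codon before the stop. In that region 22.7% of the 9344 transcripts had a match of at least 7 bases. CD82 held ACTTGA in its coding sequence, where 26.4% of the transcripts had a match of at least 6 bases. The matching bases are in capitals within 30 bases of transcript.
IGSF3 3′ UTR: gaaagttgtcagACTTGAAaagtgttccaa
CD82 coding sequence: tcttcctcttcaACTTGAtcttctttatcc
The linked CD82 transcript ended 3 bases after its last codon before the stop, the length of a stop codon, so no 3′ UTR was searched for CD82. The longest uninterrupted complement of miR-26a found in IGSF8 was 7 bases in the coding sequence, opposite nucleotides 16 to 22, and 87.6% of the 9344 transcripts had a match at least as long to some part of miR-26a. It is shown with 4 bases on each side.
IGSF8 coding sequence: ccaaAGCCTATgttc

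The libraries held an estimated 17560000 and 23640000 mapped reads for biotin and 16030000 and 17830000 for control, from the ratio of coverage to FPKM. Across the 9941 tested genes, log2(FPKM + 1) correlated at r = 0.970 within the biotin pair, 0.971 within the control pair and 0.876 to 0.883 between the groups, and genes are not independent replicates. Of 9 markers of epithelial prostate carcinoma, 8 passed the filter. Of these 1 rose, 0 fell and 7 did not pass by limma, and 1 and 0 also at an unadjusted p below 0.05. These counts lay near the shares of all tested genes, of which 13.1% rose and 9.33% fell. At an unadjusted limma p below 0.05, 1942 and 1972 of the 9941 did. The marker that rose was EGFR, the receptor of epidermal growth factor, at 31.65 and 37.33 FPKM in biotin and 15.91 and 16.69 in control libraries (log2 difference 1.03 ± 0.18, limma adjusted p = 0.0138). KRT18, an epithelial keratin, was at 45.1 and 50.0 FPKM in biotin and 61.5 and 65.0 in control libraries and did not pass. Beside epithelial genes the list held CDH2 and VIM. CDH2 was listed at 0 in all 4 libraries. VIM was at 123.5 and 165.8 FPKM in biotin and 173.4 and 271.7 in control libraries and did not pass. The summed FPKM of that list, of which VIM held a large part, was 341.0 to 402.1 in biotin and 407.1 to 545.4 in control. KLK3, which encodes prostate-specific antigen, a marker of luminal prostate cells, was listed at 0 throughout, as was PTPRC, the leukocyte marker. The luminal list summed to 1.31 and 1.36 FPKM in biotin and 1.45 and 1.79 in control, and the blood list to 3.14 and 1.95 in biotin and 2.35 and 1.88 in control. Of 8 blood genes 5 were at 0 throughout, and CD14 and CD74 each reached the filter in 1 group only. CD14, of monocytes, was at 2.57 and 1.28 FPKM in biotin and 0.675 and 0.372 in control, and CD74, of antigen-presenting cells, at 0.564 and 0.651 in biotin and 1.67 and 1.51 in control. The part of these markers in the members' differences was not tested.

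IGSF8 was listed at 291.2 and 205.1 FPKM in biotin libraries, against 6.75 and 8.09 FPKM in control libraries. Both biotin values lay far above both control values, by 25.3-fold for the closest pair and 43.1-fold for the most distant pair. The means were 248.2 ± 60.9 FPKM in biotin and 7.42 ± 0.947 in control (SD, n = 2 each), a ratio of 33.4. On the log2(FPKM + 1) scale the difference was 4.87 ± 0.24 (limma coefficient ± SE), and it was 4.62 to 5.12 when any 1 library was left out. IGSF8 was chosen by the values of these same libraries, so neither the SE nor this range tests its rise. The difference was 2nd among the 9941 tested genes. Among the genes with a value above 0 in all 4 libraries it was the highest, followed by 4.61 for CLIC4, a chloride intracellular channel protein. IGSF8 was 65th and 89th by FPKM among the 9941 tested genes in the biotin libraries and 3298th and 3020th in the control libraries. The value rested on about 11279 and 10696 reads in biotin libraries, against 238 and 318 in control libraries.

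All reads of IGSF8 were assigned to the row NM_001206665, on chromosome 1 from 160091339 to 160098828 (hg38, as deposited), with a transcript length of 2202 bases. The other row, NM_052868, ends at the same base of the minus strand gene and was listed at 0 in all 4 libraries. No gene of the tables overlapped IGSF8. The nearest gene on its lower side was KCNJ9, a potassium channel gene 1917 bases away on the plus strand, which was listed at 0 in all 4 libraries. The high IGSF8 values in the biotin libraries were thus not shared by KCNJ9.

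The 5 tested genes whose profiles lay closest to IGSF8, by Euclidean distance over the 4 libraries after subtracting each control mean on the log2(FPKM + 1) scale, were CLIC4, DUSP11, HMGN4, SEC23A and FKBP14. Their distances were 0.400, 0.758, 0.987, 1.18 and 1.38, against a median of 6.99 over all tested genes. This distance mostly reflects the size of the rise, by which IGSF8 was chosen. Genes with the next largest rises thus lie near it by construction, and genes with little change lie far away. The closest gene, CLIC4, was listed at 564.1 and 461.3 FPKM in biotin and 17.5 and 22.6 in control libraries. DUSP11, an RNA phosphatase, was at 195.1 and 122.2 FPKM in biotin and 5.09 and 8.23 in control libraries. Like IGSF8, both were higher in biotin replicate 1 than in biotin replicate 2 and lower in control replicate 1 than in control replicate 2. The distance was taken over these same values, so a shared order is partly built in. HMGN4, at 606.9 and 480.1 FPKM, and FKBP14, at 61.7 and 56.1, shared the biotin order. Their control pairs, 28.9 and 28.4 FPKM for HMGN4 and 2.98 and 2.93 for FKBP14, had the opposite order. SEC23A, of the COPII vesicle coat, had the opposite order of the biotin pair, with 513.4 and 636.1 FPKM.

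**Figure D1:**
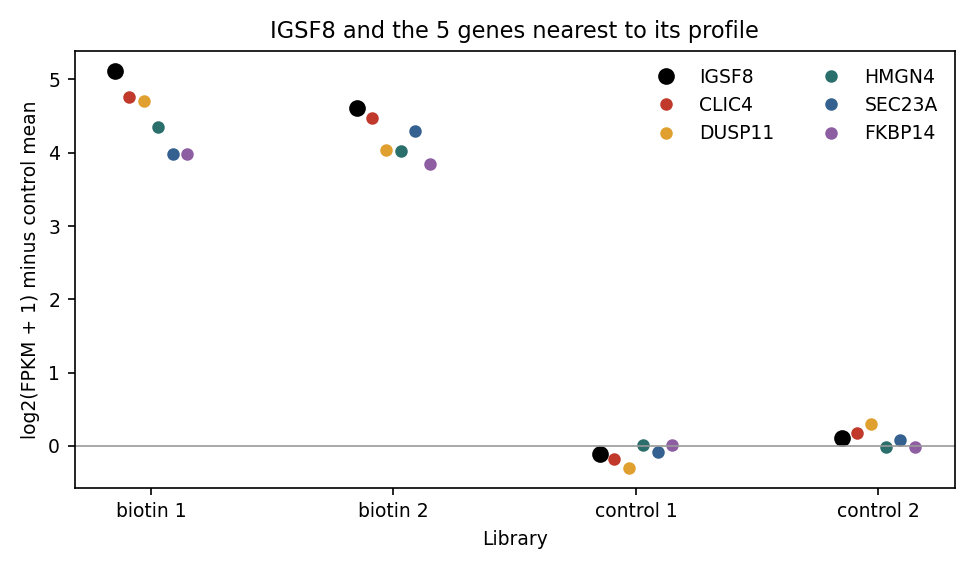
Each point is log2(FPKM + 1) of a gene in a library minus the mean of its 2 control libraries, for IGSF8 and the 5 genes nearest to its profile, with biotin libraries on the left. All 6 genes sit well above 0 in both biotin libraries, IGSF8 at the top in both.

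Neither tested relative of IGSF8 passed the test. PTGFRN, which lowers ligand binding by the prostaglandin F receptor, was at 3.03 and 3.34 FPKM in biotin libraries, against 3.30 and 3.90 FPKM in control libraries. The groups overlapped, and the log2 difference was -0.13 ± 0.15 (95% interval -0.49 to 0.22, limma adjusted p = 0.538). IGSF3 was at 1.74 and 2.95 FPKM in biotin libraries and 2.47 and 1.89 FPKM in control libraries. Its highest and its lowest value both came from the biotin group, and the log2 difference was 0.06 ± 0.21 (95% interval -0.46 to 0.58, limma adjusted p = 0.867). Its sign turned under upper-quartile scaling (-0.0011), without control replicate 2 (-0.08) and without biotin replicate 2 (-0.21). CD101, the remaining EWI gene, did not reach the filter of 1 FPKM in 2 libraries, with at most 0.0599 FPKM in a biotin and 0.0261 in a control library. IGSF8 made up 98.4% and 97.0% of the summed FPKM of the 3 EWI members in the biotin libraries, against 53.9% and 58.3% in the control libraries. PTGFRN lies on chromosome 1 from 116910067 to 116990350 and IGSF3 on the same chromosome from 116574398 to 116667755 (hg38).

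**Figure D2:**
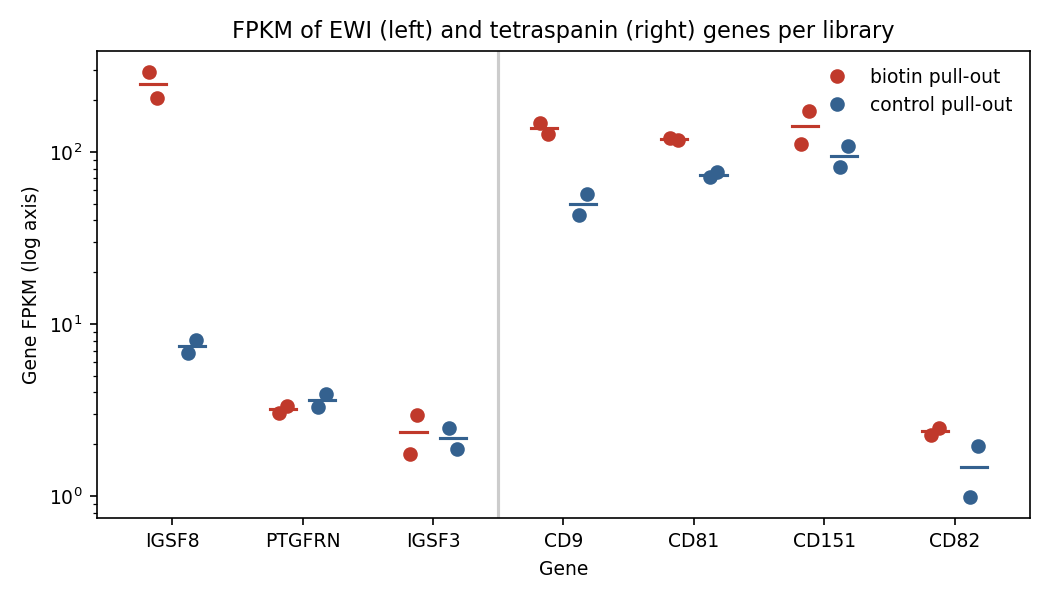
Gene FPKM on a log axis for the 3 EWI genes and the 4 tetraspanin genes, with a point per library, a line at the mean of 2 libraries, and biotin left of control. IGSF8 stands at 205.1 to 291.2 in biotin and 6.75 to 8.09 in control, PTGFRN and IGSF3 overlap between the groups, and each tetraspanin has both biotin points above both control points.

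Among the 6 members other than IGSF8, 2 rose and 0 fell (limma, Benjamini-Hochberg adjusted p below 0.05 over 9941 genes; 2 and 0 also at an unadjusted p below 0.05). Over all tested genes 13.1% rose and 9.33% fell. Of all calls 58.5% were increases, against 47.0% when libraries were scaled to their upper quartile, 66.2% by median of ratios and 51.3% by quantiles, and 2 members rose under each. In 4 of these 6 members, the tetraspanins, both biotin libraries lay above both controls, as in 29.4% of all tested genes, and in 0 they lay below, as in 37.7%. For 1 of the 6, CD9, the FPKM + 1 of each biotin library was at least 2 times that of each control library, as in 5.08% of all tested genes. The median log2 difference was 0.51 over the 6 members and -0.06 over all tested genes.

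CD9, a direct partner of IGSF8 and PTGFRN that acts in sperm-egg fusion and is carried on exosomes, was at 146.6 and 127.6 FPKM in biotin libraries, against 43.1 and 56.8 FPKM in control libraries. The lowest biotin value was 2.25 times the highest control value. CD9 rose by 1.45 ± 0.22 on the log2 scale (limma adjusted p = 0.00881), and 3.94% of all tested genes had a larger difference. The call held without biotin replicate 2 (limma adjusted p = 0.0362). It was lost without control replicate 1 (0.0781), without control replicate 2 (0.0537) and, narrowly, without biotin replicate 1 (0.0501), and in the test of single transcript rows (0.0607). The single row of CD9, NM_001769, lies on chromosome 12 from 6200316 to 6238271.

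CD81, the other direct partner of IGSF8, a component of the B cell co-receptor and an entry receptor of hepatitis C virus, was at 120.5 and 117.5 FPKM in biotin libraries and 71.3 and 76.1 FPKM in control libraries. The libraries of a group lay close together, and the lowest biotin value was 1.54 times the highest control value. CD81 rose by 0.68 ± 0.19 (limma adjusted p = 0.0455), close to the threshold, and 13.0% of all tested genes had a larger difference. Without any 1 of the 4 libraries the call was lost (limma adjusted p = 0.152 and 0.131 without control replicate 1 and 2, 0.142 and 0.135 without biotin replicate 1 and 2). It was also lost with a pseudocount of 5 (0.0540), with no filter on low values (0.0753), with the replicate number as a block (0.0892) and in the test of single transcript rows (0.0835). CD81 lies on chromosome 11 from 2377317 to 2397419, and CD81-AS1, which overlaps it on the other strand, was listed at 0 in all 4 libraries.

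CD151, which binds laminin-binding integrins, was at 111.3 and 171.9 FPKM in biotin libraries and 81.4 and 108.8 FPKM in control libraries. Biotin replicate 1 and control replicate 2 nearly met, and the log2 difference of 0.55 ± 0.28 did not pass (95% interval -0.13 to 1.23, limma adjusted p = 0.197). Its neighbour POLR2L, a subunit shared by the nuclear RNA polymerases, lies 886 bases beyond the CD151 rows on the other strand. GENCODE 29 lets both genes overlap, and the strand setting of the counting is not given in the sources used here. POLR2L was at 89.7 and 115.9 FPKM in biotin and 156.1 and 180.4 FPKM in control libraries, the opposite order to CD151. CD82, the metastasis suppressor, was low, at 2.26 and 2.499 FPKM in biotin and 0.991 and 1.96 FPKM in control libraries. These values rested on about 67 and 98 reads in biotin and 26 and 57 in control libraries, and CD82 passed the filter through 3 libraries. Its log2 difference of 0.48 ± 0.21 did not pass (95% interval -0.04 to 0.99, limma adjusted p = 0.153).

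**Figure D3:**
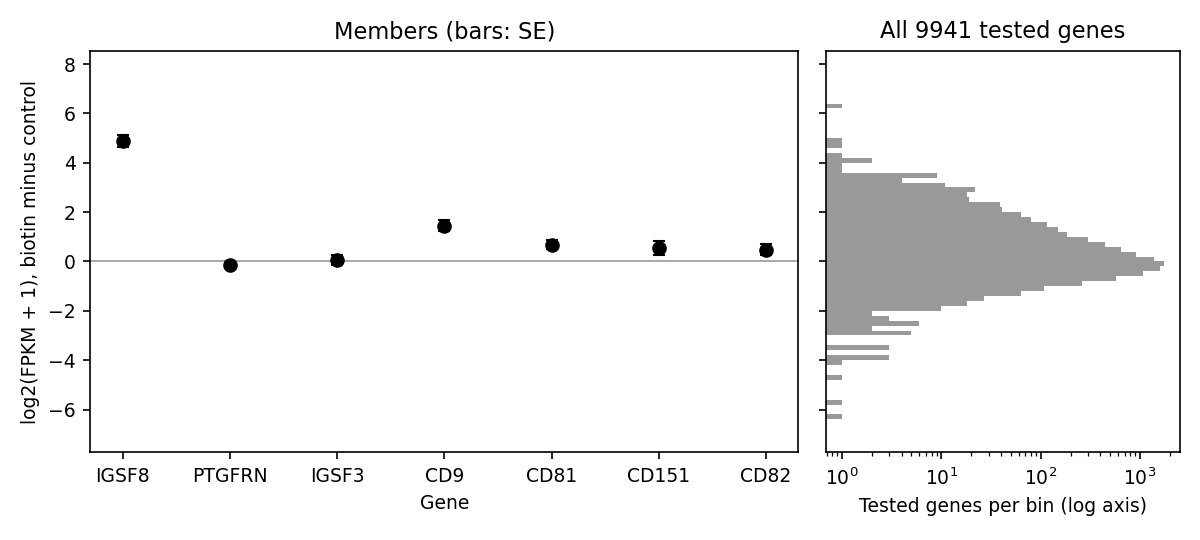
Left, the difference of log2(FPKM + 1) between biotin and control for each of the 7 genes with its SE, and right, the number of the 9941 tested genes per bin of the same difference, on a log axis. IGSF8 at 4.87 lies in the sparse upper end of the distribution, CD9 at 1.45 in its upper flank, and the other 5 genes between -0.13 and 0.68.

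In terms of level, CD151, CD9 and CD81 were abundant in both groups and CD82, PTGFRN and IGSF3 were low. In the biotin libraries IGSF8 exceeded each tetraspanin among the members, but not the tetraspanin CD63, at 590.2 and 414.0 FPKM. IGSF8 had 1.99 and 1.61 times the FPKM of CD9 and 2.42 and 1.75 times that of CD81. In the control libraries it was at 0.157 and 0.142 times CD9 and 0.0947 and 0.106 times CD81. By mean FPKM the order in biotin was IGSF8, CD151, CD9, CD81, PTGFRN, CD82 and IGSF3, and the values of CD151, CD9 and CD81 lay within the range spanned by the 2 CD151 libraries. The CD82 values lay within the range of the 2 IGSF3 libraries, and PTGFRN lay just above both. In control the order was CD151, CD81, CD9, IGSF8, PTGFRN, IGSF3 and CD82, and of these neighbours only CD82 and IGSF3 overlapped. The ratio of CD9 to CD81 was 1.22 and 1.09 in biotin and 0.604 and 0.746 in control libraries.

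Several members have more than 1 transcript row, and the rows were less steady than their sums. For IGSF3, NM_001542 held the whole value in replicate 1 of both groups and NM_001007237 in replicate 2 of both groups. For CD151, NM_001039490 held the whole value in 3 libraries, while in control replicate 1 it was at 44.6 FPKM beside 27.3 for NM_139030 and 9.52 for NM_139029. For CD82, NM_002231 was listed at 2.26 and 1.17 FPKM in biotin and at 0 in both controls, while NM_001024844 was at 0 and 1.33 in biotin and 0.991 and 1.96 in control libraries. Read as a single row, NM_001024844 differed by -0.67 on the log2 scale, the opposite sign to the CD82 sum. The rows of a gene share most of their sequence, so their single values are uncertain.

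**Figure D4:**
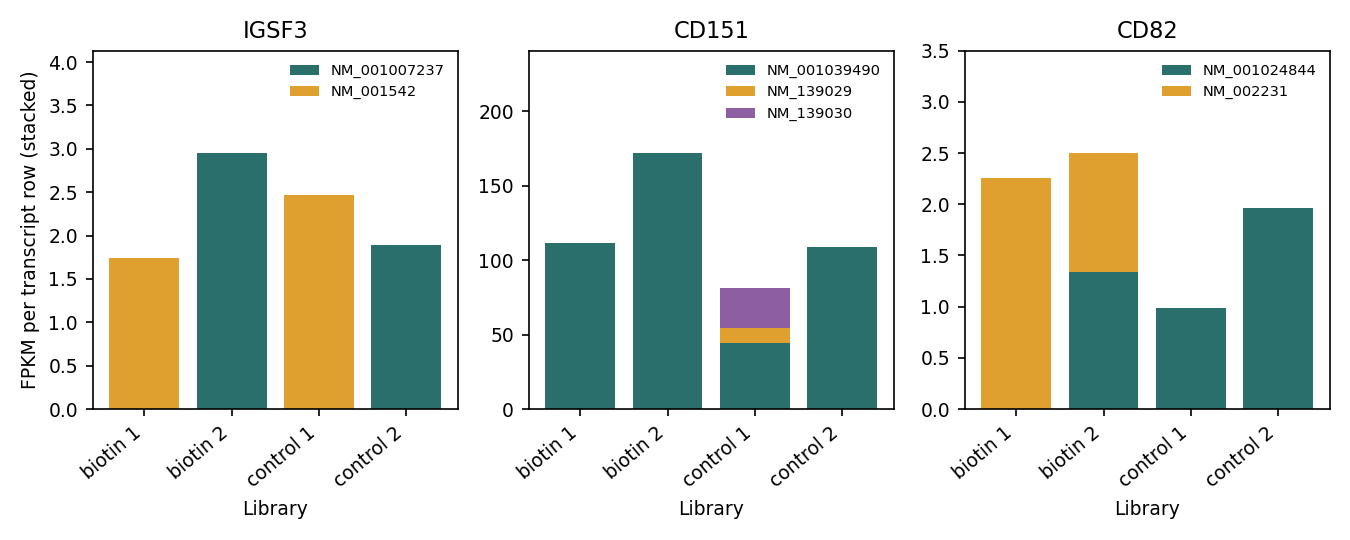
Stacked bars give the FPKM of each transcript row of IGSF3, CD151 and CD82 in each library, biotin left of control, leaving out rows at 0 in all libraries. The colour of the IGSF3 bar changes with the replicate number and not with the group, and only control replicate 1 splits CD151 among 3 rows.

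Transcript features that played no part in choosing the genes varied among them. The GC content was 63.3% for IGSF8, 62.7% for CD81, 61.7% for CD82, 61.4% for CD151, 53.0% for IGSF3, 51.6% for PTGFRN and 45.0% for CD9, against a median of 48.7% over 9344 transcripts. CD9, with the second largest difference of the 7, thus had the lowest GC content, and IGSF8 the highest. IGSF8 had a 3′ UTR of 277 bases, shorter than the median of 1061, while PTGFRN and IGSF3 had 3394 and 2906. These lengths include the stop codon. Across the 9344 genes, which share libraries and depth, the log2 difference had a Spearman rho of 0.24 with GC content, 0.19 with transcript length and 0.10 with 3′ UTR length. The part of these features in the members' differences was not tested.

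Other tetraspanins, of which 29 were listed and 13 passed the filter, moved in both directions. One of the 13, TSPAN12, passed only through the group where it was high and is given by its values alone. Of the other 12, 5 rose and 2 fell (limma), and 5 did not pass, where 13.1% of all tested genes rose and 9.33% fell. Their median log2 difference was 0.1, against -0.06 over all tested genes. TSPAN5, a regulator of the sheddase ADAM10, was at 32.7 and 31.6 FPKM in biotin libraries, against 3.52 and 3.57 FPKM in control libraries. The groups were far apart and the libraries within them nearly equal, and TSPAN5 rose by 2.87 ± 0.16 (limma adjusted p = 0.000439). CD63, a tetraspanin of late endosomes and exosomes, was at 590.2 and 414.0 FPKM in biotin and 100.5 and 106.1 FPKM in control libraries, a rise of 2.25 ± 0.24 (limma adjusted p = 0.00272). TSPAN33 rose by 1.52 ± 0.16. TSPAN12, a co-activator of Norrin and Frizzled-4 signalling, was at 2.83 and 2.31 FPKM in biotin and 0.317 and 0.506 FPKM in control libraries. TSPAN9 and TSPAN14 were the other increases, and TSPAN6 fell by 0.64 ± 0.16 and TSPAN3 by 0.62 ± 0.15 on the log2 scale. Of the 5 increases, 1 was still called without control replicate 1, 3 without control replicate 2, 4 without biotin replicate 1 and 3 without biotin replicate 2, and of the 2 decreases 0 in each of these limma fits. TSPAN5 passed in all 4. CD63 and TSPAN33 missed the threshold without control replicate 1 (limma adjusted p = 0.0599 and 0.0541). TSPAN9 passed only without biotin replicate 1 (0.0285), and TSPAN14, TSPAN6 and TSPAN3 in none of the 4.

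**Figure D5:**
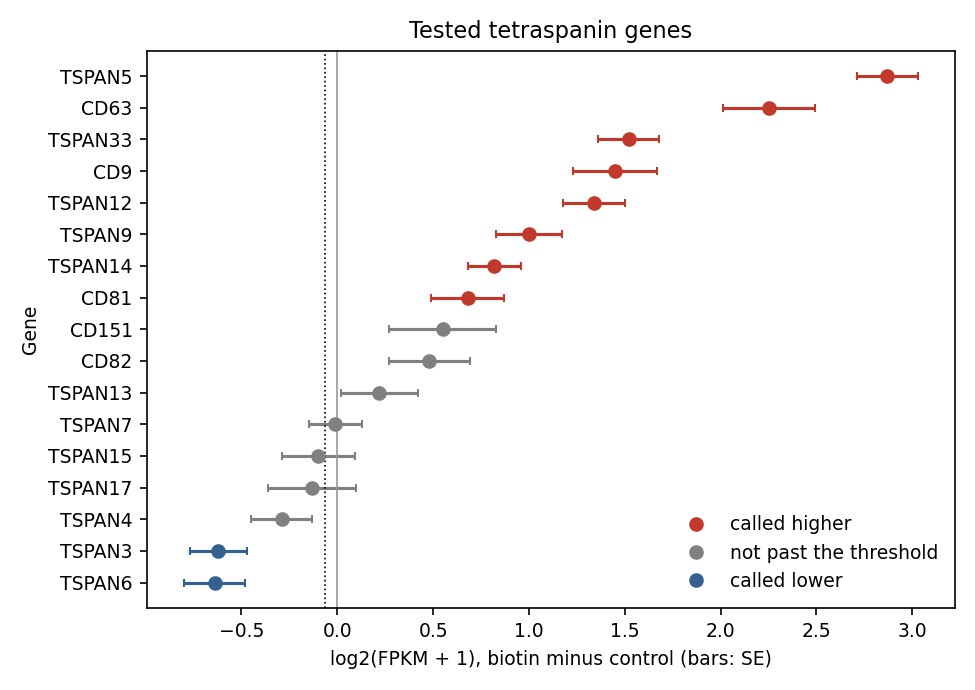
Difference of log2(FPKM + 1) between biotin and control with its SE for the 17 tested tetraspanin genes, the 4 members included, ordered by size, with the median of all tested genes as a dotted line. TSPAN5 at 2.87 and CD63 at 2.25 lie above CD9 at 1.45, and TSPAN3 and TSPAN6 lie lowest. TSPAN12 passed the filter through its biotin libraries only, so its colour is not to be read as a call.

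Integrins that join tetraspanin complexes passed the test in 1 of 9 tested genes, which rose, a share near the 13.1% of all tested genes. ITGA2, the collagen-binding alpha 2 subunit, was at 25.4 and 27.6 FPKM in biotin and 3.63 and 4.50 FPKM in control libraries. It rose by 2.44 ± 0.17 (limma adjusted p = 0.000816), and by 2.32 to 2.57 when any 1 library was left out. In the test of single transcript rows its call was lost (limma adjusted p = 0.0680). In 0 genes was a fall called by limma, against 2 at an unadjusted p below 0.05. Over all tested genes 9.33% were called lower, and 1972 of 9941 were lower at an unadjusted limma p below 0.05. ITGA3, the alpha subunit of the main CD151 partner, was at 43.7 and 54.7 FPKM in biotin and 49.6 and 42.5 FPKM in control libraries. ITGB1, the beta subunit shared by these integrins, was at 75.5 and 70.6 FPKM in biotin and 112.3 and 110.0 FPKM in control libraries (log2 difference -0.60 ± 0.19, limma adjusted p = 0.0628). A fall of 1 integrin was called under upper-quartile scaling, with a mean FPKM of at least 5 and with no variance trend.

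The linkers that tie EWI proteins to actin split. MSN, which encodes moesin, was at 130.5 and 70.1 FPKM in biotin and 28.1 and 27.0 FPKM in control libraries, a rise of 1.76 ± 0.31 (limma adjusted p = 0.0138). RDX, which encodes radixin, was at 4.20 and 3.93 FPKM in biotin and 9.16 and 8.70 FPKM in control libraries and fell by 0.97 ± 0.15 (limma adjusted p = 0.00832). EZR, which encodes ezrin, was at 12.04 and 10.84 FPKM in biotin and 14.57 and 14.59 FPKM in control libraries and did not pass (limma adjusted p = 0.187). Without control replicate 1 or 2 the MSN call was lost (limma adjusted p = 0.1003 and 0.1071), and the RDX call was lost without control replicate 1 (0.0738), control replicate 2 (0.0632) and biotin replicate 2 (0.0590).

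Of 10 tested other surface partners, 2 rose, 1 fell and 7 did not pass, near the shares of all tested genes, 13.1% and 9.33%. SCARB1, a lipoprotein receptor that also serves hepatitis C virus entry, was at 179.7 and 139.0 FPKM in biotin and 36.1 and 41.8 FPKM in control libraries, a rise of 2.00 ± 0.22 (limma adjusted p = 0.00295). CD46, a complement regulator, rose by 1.16 ± 0.17, and ADAM10 fell by 0.54 ± 0.15. SCARB1 lost its call without control replicate 1 (limma adjusted p = 0.0602), CD46 without control replicate 1 (0.0751) or 2 (0.0706), and ADAM10 without any 1 library (0.126 to 0.168), under median-of-ratios scaling (0.0703), with the replicate block (0.0753), with no filter (0.0827), with a pseudocount of 0.1 (0.0512) and in the test of single transcript rows (0.127).

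Of 7 genes for palmitoylation and vesicle sorting of tetraspanin complexes, 3 rose and 0 fell by limma, where 13.1% and 9.33% of all tested genes did. At an unadjusted limma p below 0.05, 4 rose and 0 fell, where 1942 and 1972 of the 9941 tested genes did. Under median-of-ratios and quantile scaling 4 of the 7 were called higher. SDCBP, which encodes the exosomal adaptor syntenin, was at 156.4 and 220.1 FPKM in biotin and 24.8 and 33.9 FPKM in control libraries, a rise of 2.64 ± 0.26 (limma adjusted p = 0.00215). PDCD6IP, which encodes its partner ALIX, was at 18.7 and 26.4 FPKM in biotin and 4.17 and 4.99 FPKM in control libraries and rose by 2.06 ± 0.21 (limma adjusted p = 0.00252). ZDHHC3, a palmitoyltransferase, rose by 0.96 ± 0.14. SDCBP and PDCD6IP missed the threshold without control replicate 1 (limma adjusted p = 0.0541 and 0.0603). ZDHHC3 passed only without biotin replicate 1 (0.0402). The median log2 difference of the 7 genes was 0.59, against -0.06 over all tested genes.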

How the data were processed

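RNA from 4 streptavidin pull-outs was sequenced as single reads of 50 bases, per the labels' protocols, and the series describes 2 biological replicates per group. The submitters' processing notes name Cufflinks 2.1.1, Cuffdiff, TopHat2 2.0.9, cutadapt and FastQC 0.10.1, and the build hg38. Options and strand setting were not given in the sources used here. The authors deposited FPKM per transcript, without counts. The deposited coverage, a signal per base, was used here to estimate reads, and such estimates carry no counting interval.

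Accessions were given symbols from RefSeq (GRCh38.p14) or GENCODE 29, with 98.6% of 46699 matched, and gene FPKM was the sum of its rows. Genes with a row of failed or excess-data status and short structured RNA genes were left out. Genes with at least 1 FPKM in at least 2 libraries were compared on log2(FPKM + 1), which understates changes of low genes, with limma 3.58.1 in R 4.3.3 (eBayes with trend, two-sided, Benjamini-Hochberg adjusted p below 0.05), checked on simulated data. The fit had 2 residual degrees of freedom, to which the prior added 4.2. An exact permutation test of 2 against 2 cannot go below p = 0.333. Named were all members, list genes past the threshold (up to 4 per direction), neighbours and the 5 nearest profiles (1 neighbour is not reported here), and others named for their roles were chosen after their values were seen. Members and lists were chosen with earlier results of these data known. Amino acid sequences were not used here.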

Additional observations from a re-analysis of the deposited data

How the results depend on the processing

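With 2 libraries a group, every call rests on limma's pooled spread, and fits that leave out a library assume that the lone library varies like the others. All genes called higher and lower numbered 1307 and 927, against 653 and 230 with no filter, 336 and 142 rows for single transcripts, 193 to 680 and 32 to 223 without 1 library, and 534 lower with the replicate block. Of the 6 members, 2 were called higher, against 1 with a pseudocount of 5, no filter or the replicate block, 0 with single transcripts, and 0 to 1 without 1 library. Of the other tetraspanins, TSPAN12 left out, 5 were higher and 2 lower. With a mean FPKM of at least 5 only 8 were tested, and these counts were 3 and 1. TSPAN9, TSPAN14 and TSPAN6 were not tested there, and CD63, TSPAN33, TSPAN5 and TSPAN3 kept their calls. With single transcripts the counts were 3 and 0. With no filter or the replicate block 0 were lower. IGSF3 turned sign with upper-quartile scaling (-0.0011) and ranged from -0.21 to 0.32 without 1 library, and CD82 read as its main transcript was at -0.67. In the test of single transcript rows ITGA2, MSN, RDX, CD46, PDCD6IP and ZDHHC3 lost their calls. CD63, SCARB1, SDCBP, TSPAN33 and TSPAN5 kept theirs. MSN also lost its call with no filter. The causes were not tested. The difference of IGSF8 was 4.33 with a pseudocount of 5, by construction of that scale. Same-numbered libraries of both groups deviated with a correlation of 0.002 across genes, so the labels' numbers were not treated as pairs. Depth limits CD82 most, with 26 to 98 reads a library.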
